A study of Mus musculus with 9 samples.

Results

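All lungs that received LPS and cigarette smoke condensate (CSC) were taken here as 1 exposed group and set against the lungs of normal control (NC) mice. The members were chosen by the treatment in the sample labels, and they were 6 of the 9 libraries of the series. The exposed group held 3 EA-BN-H libraries and 3 COPD libraries, and the other 3 libraries were NC. Mice of the EA-BN-H group received 0.5 mg/kg of LPS and 12.5 mg/kg of CSC into the nose on days 1, 6 and 13. They also took 200 mg/kg of EA-BN, the ethyl acetate fraction of Boehmeria nivea leaves, in 2% DMSO by mouth each day through day 14. COPD mice received the same instillations with vehicle by mouth, and NC mice received PBS into the nose with vehicle by mouth. All were male C57BL/6N mice without any engineered allele named in the labels, their age was not given in the sources used here, and every lung was collected on day 15. The comparison asks what exposure to LPS/CSC did to lung transcripts regardless of EA-BN. As a model it is limited to instilled LPS and condensate, and EA-BN was present in 3 of the 6 exposed lungs.

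LPS, a cell wall component of Gram-negative bacteria, is sensed by Toll-like receptor 4. The receptor signals through MyD88 to NF-kappaB and through TRIF to interferon regulatory factors. Interferons then act through STAT proteins on genes that carry an interferon-stimulated response element (ISRE). In the lung these responses draw monocytes and neutrophils out of the blood, whereas alveolar macrophages are resident in the airspace.

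Each library held between 25232402 and 33523425 estimated counts in the exposed group and between 25236827 and 42156219 in NC. Of these counts, 26.1 to 59.4% in the exposed libraries and 49.6 to 51.2% in NC came from nuclear protein-coding genes. The 7SL RNA took 32.5 to 63.5% and 34.0 to 40.4%. EA-BN-H replicate 3 held the least nuclear protein-coding count (8301248), and NC replicate 1 held the most mitochondrial ribosomal RNA, 6.24% against 2.50 and 2.99% in the other NC libraries. None of 6 library measures passed an exact permutation test over libraries between the groups, and the smallest of the 2-sided p values was 0.143 and the smallest possible was 0.0238. The lung markers Sftpc, Scgb1a1 and Ager were detected in all 9 libraries. The labels do not say that each library came from a separate mouse, so that p values measure the spread between these libraries.

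More genes were called higher than lower on counts. Of 18716 genes tested, 741 (3.96%) were higher and 157 (0.839%) were lower in the exposed libraries at an adjusted p under 0.05, 4.8% in all, by the quasi-likelihood test of edgeR with Benjamini-Hochberg adjustment. The higher genes had a median log2 fold change of 2.14, which stayed 2.14 with the 25 that lacked any NC read set to their lower bounds, and the lower genes had a median of -0.98. The median over all genes was -0.01. In 722 of the higher genes each of the 6 exposed libraries lay above each NC library, and in 151 of the lower genes each lay below. Over all genes, 7.9% had the 6 exposed libraries above and 4.37% had them below, and 19.3% had an unadjusted p under 0.05. Nuclear protein-coding genes made up 695 of the 741 higher genes. At the thresholds used in the study, a raw p under 0.05 with a log2 fold change of 1 or more in size, 1410 genes were higher (7.53%) and 350 lower (1.87%), 9.4% in all, on the unshrunken folds of edgeR. With the shrunken folds of DESeq2 these counts were 1056 and 143. Of the calls, 82.5% were higher. Scaled to library totals alone, which placed the median of all genes at -0.16, edgeR called 259 genes higher and 123 lower, and 67.8% were higher. On log2(TPM + 0.1), where limma placed that median at -0.27, 137 genes were called higher and 36 lower (9 and 30 on log2(TPM + 1)), and at the study's thresholds 51.0% of the genes were higher, against 80.1% in the main fit on counts.

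**Figure D1:**
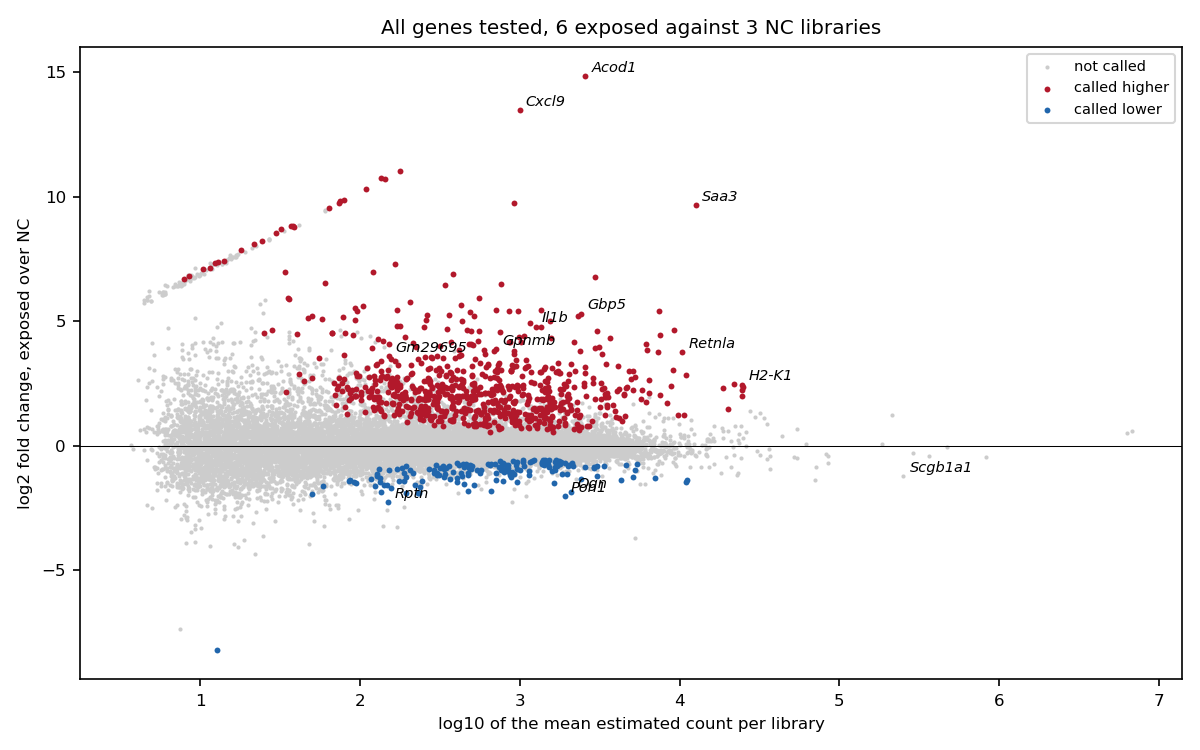
Log2 fold change of the 6 exposed over the 3 NC libraries (y axis) against the log10 of the mean estimated count per library (x axis), with 1 point per gene for 18716 genes. Red points are the 741 genes called higher, blue points the 157 called lower, and the upper diagonal band holds genes with no read in any NC library, whose fitted fold changes depend on the depth.

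The number of calls depended on the libraries kept, above all on those of NC. Without NC replicate 1, 2 or 3, edgeR called 276, 122 and 218 genes higher and 61, 9 and 23 lower. Without EA-BN-H replicate 1, 2 or 3 it called 756, 571 and 986 higher and 128, 93 and 216 lower. Without COPD replicate 1, 2 or 3 it called 427, 704 and 392 higher and 77, 132 and 45 lower.

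**Figure D2:**
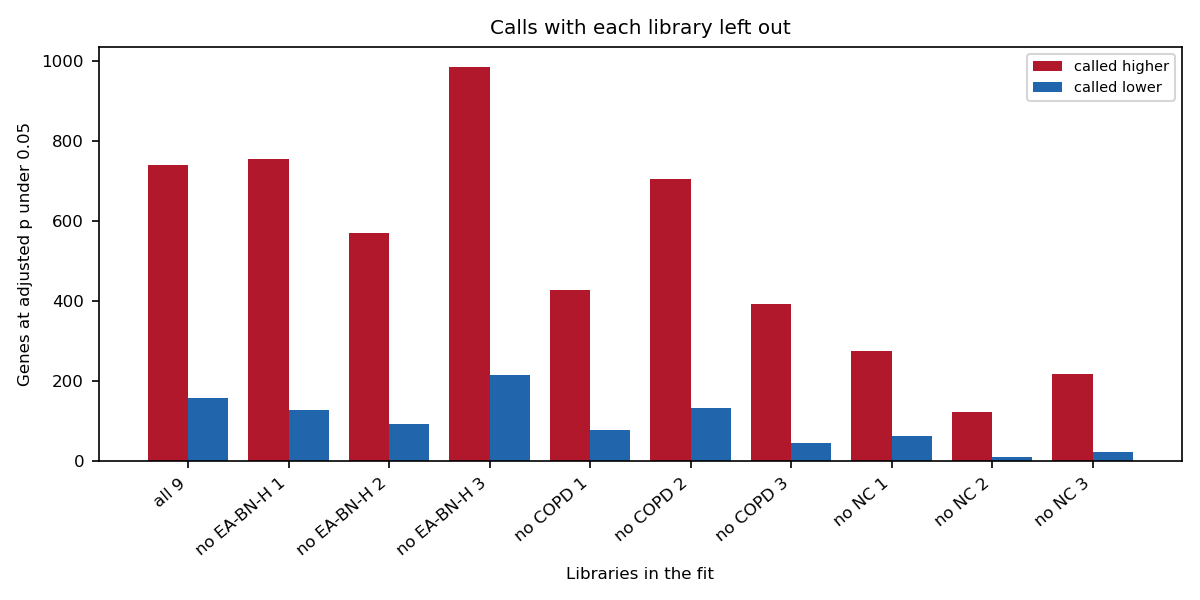
Number of genes at an adjusted p under 0.05 (y axis) with all 9 libraries and with each library left out in turn (x axis), red for genes higher and blue for genes lower in the exposed libraries. The tallest red bar, 986 genes, stands without EA-BN-H replicate 3, and the shortest red bar, 122 genes, without NC replicate 2.

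The largest rises were in genes that NC lungs hardly expressed, which a ranking by fold change places first. Those without an NC read passed the count filter through the exposed libraries alone. Their folds and p values are therefore not independent of that filter. Acod1 (chr14:103047012-103056573 of mm10), the itaconate-producing enzyme of activated macrophages, stood at 25.2, 78.1 and 349 CPM (lowest, median and highest of the 6 exposed libraries), and no NC library held a read of it. Against a floor of 3 counts per library its mean was at least 1329.6-fold higher in the exposed libraries (adjusted p = 0.0113). Cxcl9 (chr5:92321331-92328079), a chemokine that draws T cells and is induced by interferon gamma, stood at 7.38, 35.7 and 114 CPM and was likewise without a read in NC, at least 511-fold higher (adjusted p = 0.0129). For both genes the high exposed libraries were EA-BN-H replicate 2 with COPD replicates 1 and 3, and the other 3 exposed libraries were several-fold lower but far above NC. Orm2, an acute phase plasma protein, Dmbt1, a scavenger protein of mucosal surfaces, Trim30c, a TRIM family gene, Gpr84, a receptor for medium-chain fatty acids on myeloid cells, Cxcl3, a neutrophil chemokine, Sectm1a, a secreted membrane protein of immune cells, Ubd, a ubiquitin-like modifier, and Pla1a, a phospholipase, also had no read in NC. Their means were at least 32.9-fold to 92.9-fold higher in the exposed libraries. Saa3 (chr7:46711998-46719615), an acute phase protein made in inflamed tissue, stood at 131, 426 and 1585 CPM in the exposed libraries, against 1.95, 0 and 0 CPM in NC (log2 fold change 9.67, standard error 1.62, adjusted p = 0.0122). All of its 89 NC reads were in NC replicate 1, so that its fold rests on that library, and the log2 fold change ran from 9.04 to 17.07 with a library left out. Cxcl10, the sister chemokine of Cxcl9, stood at 9.11, 26.3 and 137 CPM in the exposed libraries, against 0.11, 0 and 0 CPM in NC. With 5 NC reads in all, its ratio was 894 (95% counting interval 383 to 2752).

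**Figure D3:**
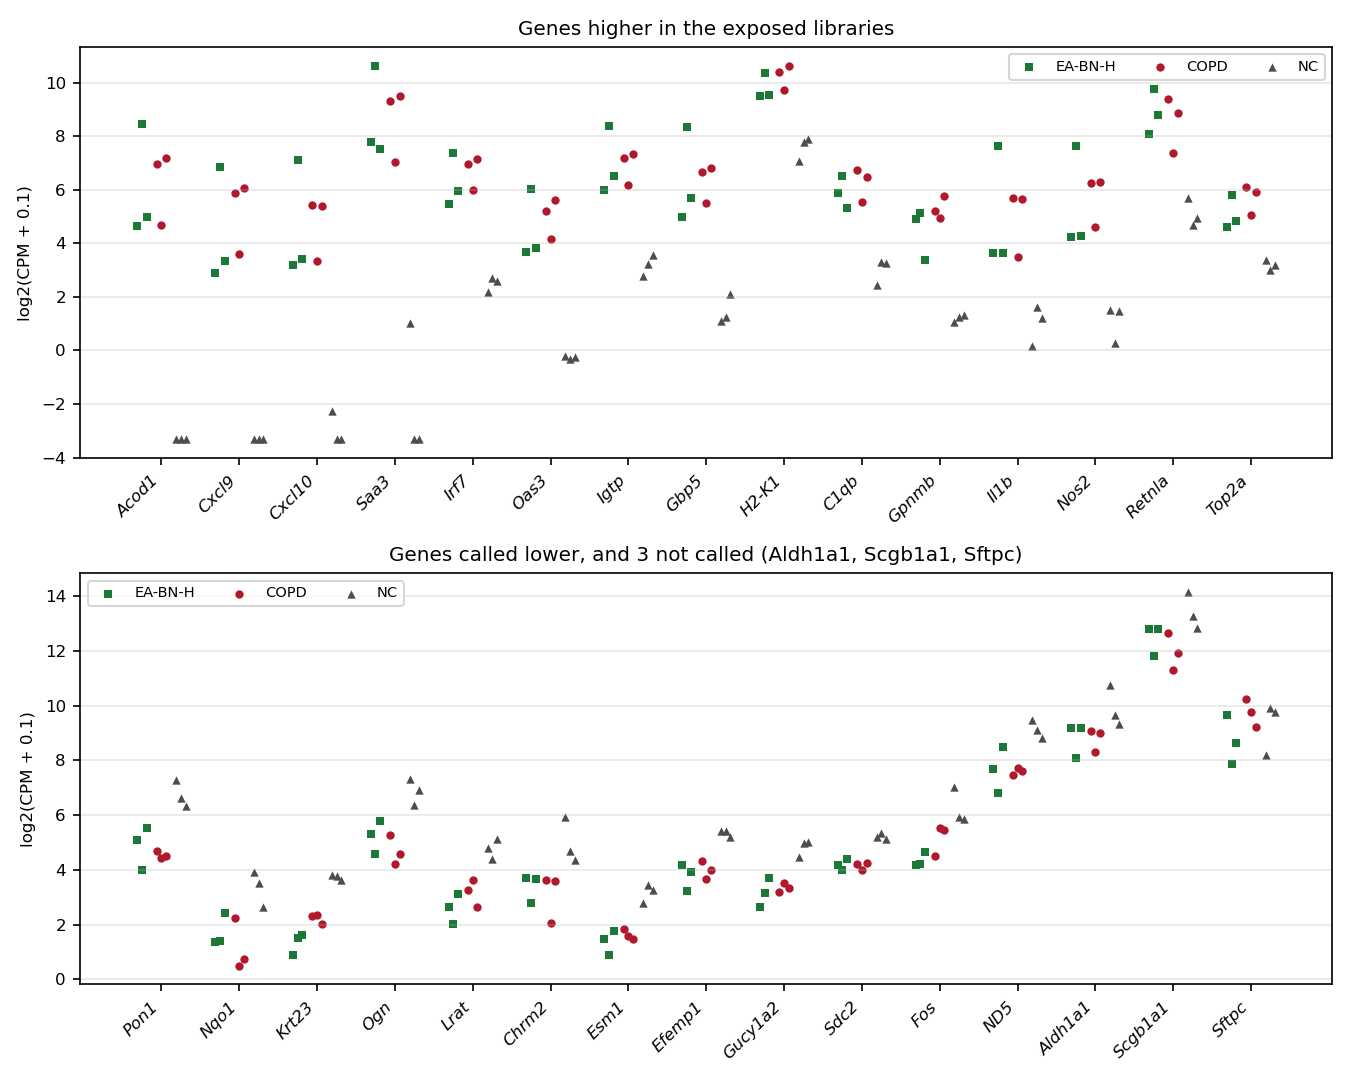
Levels of 30 genes as log2(CPM + 0.1) (y axis) in each library, with EA-BN-H (green squares) and COPD (red circles) left of NC (grey triangles) within each gene (x axis). In the upper panel no exposed library overlaps NC; in the lower panel Pon1 to ND5 lie below NC and Sftpc overlaps it.

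Most of the measured genes that interferons induce rose. Of 35 type I interferon-stimulated genes 27 were called higher and none lower, with a median log2 fold change of 2.47, against -0.01 over all genes. Irf7, the transcription factor that amplifies type I interferon production, stood at 44.2, 94.1 and 166 CPM in the exposed libraries, against 4.39, 6.40 and 5.97 CPM in NC (log2 fold change 4.17, standard error 0.49, adjusted p = 0.00900). Oas3, a sensor of double-stranded RNA that activates RNase L, stood at 12.6, 27.1 and 65.4 CPM, against 0.768, 0.697 and 0.751 CPM in NC (log2 fold change 5.45, standard error 0.68, adjusted p = 0.00900). The groups were far apart for both, with EA-BN-H replicate 2 at the top and EA-BN-H replicate 1 at the bottom of the exposed libraries. Oasl2, an antiviral protein of the same family, and Zbp1, a sensor of Z-form nucleic acid that can start cell death, had log2 fold changes of 3.17 and 4.40 (adjusted p = 0.00926 for each).

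Interferon-inducible GTPases, which coat and disrupt the vacuoles of intracellular microbes, rose in 17 of 18 members, with a median log2 fold change of 3.55. All 18 had the exposed libraries above NC. Gbp5, a guanylate-binding protein, stood at 31.5, 76.8 and 324 CPM in the exposed libraries, against 2.06, 2.27 and 4.18 CPM in NC (log2 fold change 5.30, standard error 0.85, adjusted p = 0.0115). Igtp, an immunity-related GTPase, stood at 63.4, 118 and 334 CPM, against 6.69, 9.34 and 11.8 CPM in NC (log2 fold change 3.96, standard error 0.58, adjusted p = 0.00934). EA-BN-H replicate 2 was far above the next library for both, and the lowest exposed library was still above the highest NC library. Gbp8, Tgtp1, Irgm1 and Irgm2 of the same families had log2 fold changes of 3.82, 4.32, 3.28 and 2.91. Trim30a, a TRIM family gene (log2 fold change 1.89, adjusted p = 0.0626) and Eif2ak2, which encodes the antiviral kinase PKR (log2 fold change 1.03, adjusted p = 0.0694), were not called. Without NC replicate 1, 2 or 3, 7, 2 and 6 of the GTPases and 13, 10 and 13 of the type I genes were called. Irf7, Oas3, Oasl2, Zbp1, Gbp8 and Igtp were called in all 9 fits with 1 library left out. Several of these genes have near-identical neighbours (Tgtp1 and Tgtp2, Ifit3 and Ifit3b, the Oas1 and Gbp clusters), and reads shared between copies could have been split either way.

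Promoter sequence was read because the ISRE is known from genes that interferons induce. The RefSeq promoters of GRCm38.p6, the same build as the table, run 300 bases, 250 before to 50 after a start site, and matched 562 of the 741 higher genes by gene ID, with 701 windows. The ISRE core, GAAA and GAAA with any 2 bases between them, searched on both strands, was in 9.84% of these windows, in 4.02% of the 174 windows of 123 lower genes, in 3.22% of the 17373 windows of all tested genes with a match, and in 3.44% of all 32851 windows. The palindromic STAT motif TTCNNNGAA was in 9.99%, 8.62%, 7.17% and 8.30% of the same 4 sets. The kappaB motif, GGGA and CC with any 4 bases between them, searched on both strands, was in 26.8%, 27.0%, 25.6% and 20.7%. Matches of the ISRE core and the STAT motif overlapped in 5 of the 701 windows, those of the STAT and kappaB motifs in 2, and those of the ISRE core and kappaB in 0. The windows of Irf7 and Oasl2 held no match of the ISRE core, and Zbp1 and Gbp8 had no window here. These are descriptions of letters in a window, not of binding.

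The 250 bases before the start site of 4 called genes with an ISRE core are given 5′ to 3′ on the strand of the gene, with the match in capitals. It begins at position -165 for Gbp5, -34 for Igtp, -213 for Cxcl10 and -75 for Oas3, counted back from the start site. In Gbp5 the letters are those of the opposite strand.
Gbp5, chr3:142496684-142496933, + strand: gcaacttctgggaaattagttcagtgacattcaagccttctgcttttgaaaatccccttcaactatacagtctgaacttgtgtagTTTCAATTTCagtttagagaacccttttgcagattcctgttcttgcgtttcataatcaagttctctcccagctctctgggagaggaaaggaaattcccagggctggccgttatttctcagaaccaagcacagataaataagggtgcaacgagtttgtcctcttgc
Igtp, chr11:58199306-58199555, + strand: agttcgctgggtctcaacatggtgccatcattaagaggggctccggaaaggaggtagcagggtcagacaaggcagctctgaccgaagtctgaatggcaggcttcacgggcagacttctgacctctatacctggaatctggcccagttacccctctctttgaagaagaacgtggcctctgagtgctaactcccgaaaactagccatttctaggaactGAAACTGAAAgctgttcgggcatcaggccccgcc
Cxcl10, chr5:92348890-92349139, - strand: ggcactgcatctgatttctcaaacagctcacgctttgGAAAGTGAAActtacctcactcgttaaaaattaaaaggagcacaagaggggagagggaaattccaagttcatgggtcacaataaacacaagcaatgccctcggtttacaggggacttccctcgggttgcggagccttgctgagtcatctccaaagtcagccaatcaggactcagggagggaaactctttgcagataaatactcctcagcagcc
Oas3, chr5:120777660-120777909, - strand: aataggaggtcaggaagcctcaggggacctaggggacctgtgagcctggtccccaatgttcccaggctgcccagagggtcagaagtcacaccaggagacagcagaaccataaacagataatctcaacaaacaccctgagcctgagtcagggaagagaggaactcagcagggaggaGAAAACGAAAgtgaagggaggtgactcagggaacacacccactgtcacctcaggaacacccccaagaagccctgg

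Antigen presentation rose with the interferon genes. Of 20 genes of MHC class I presentation and the immunoproteasome 18 were called higher, with a median log2 fold change of 2.24. H2-K1, a classical class I heavy chain, stood at 733, 1074 and 1557 CPM in the exposed libraries, against 135, 222 and 239 CPM in NC (log2 fold change 2.45, standard error 0.36, adjusted p = 0.00934). Nlrc5, the transactivator of class I genes, stood at 136, 207 and 430.4 CPM, against 12.8, 36.2 and 40.9 CPM in NC (log2 fold change 2.98, standard error 0.46, adjusted p = 0.0109). Neither gene overlapped between the groups, and NC replicate 1 was the lowest library for both. H2-T22, a non-classical class I gene, and Tap1, a subunit of the peptide transporter, had log2 fold changes of 2.41 and 2.98. Class I heavy chains share long stretches of sequence, so that reads could move between them.

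Of 15 genes of MHC class II and costimulation, 9 were called higher, with a median of 2.04. Ciita, the transactivator of class II genes, had a log2 fold change of 2.33, Cd74, the invariant chain, of 2.34, and H2-Eb1, a class II beta chain, of 2.12. Cd274, which encodes the checkpoint ligand PD-L1, stood at 47.2, 70.9 and 281 CPM in the exposed libraries, against 3.80, 8.52 and 11.1 CPM in NC (log2 fold change 3.79, standard error 0.70, adjusted p = 0.0152). Without NC replicate 1, 2 or 3, 11, 6 and 7 class I genes and 1, 0 and 2 class II genes were called. H2-K1, H2-T22, Tap1 and Nlrc5 were called in each of the 9 fits.

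**Figure D4:**
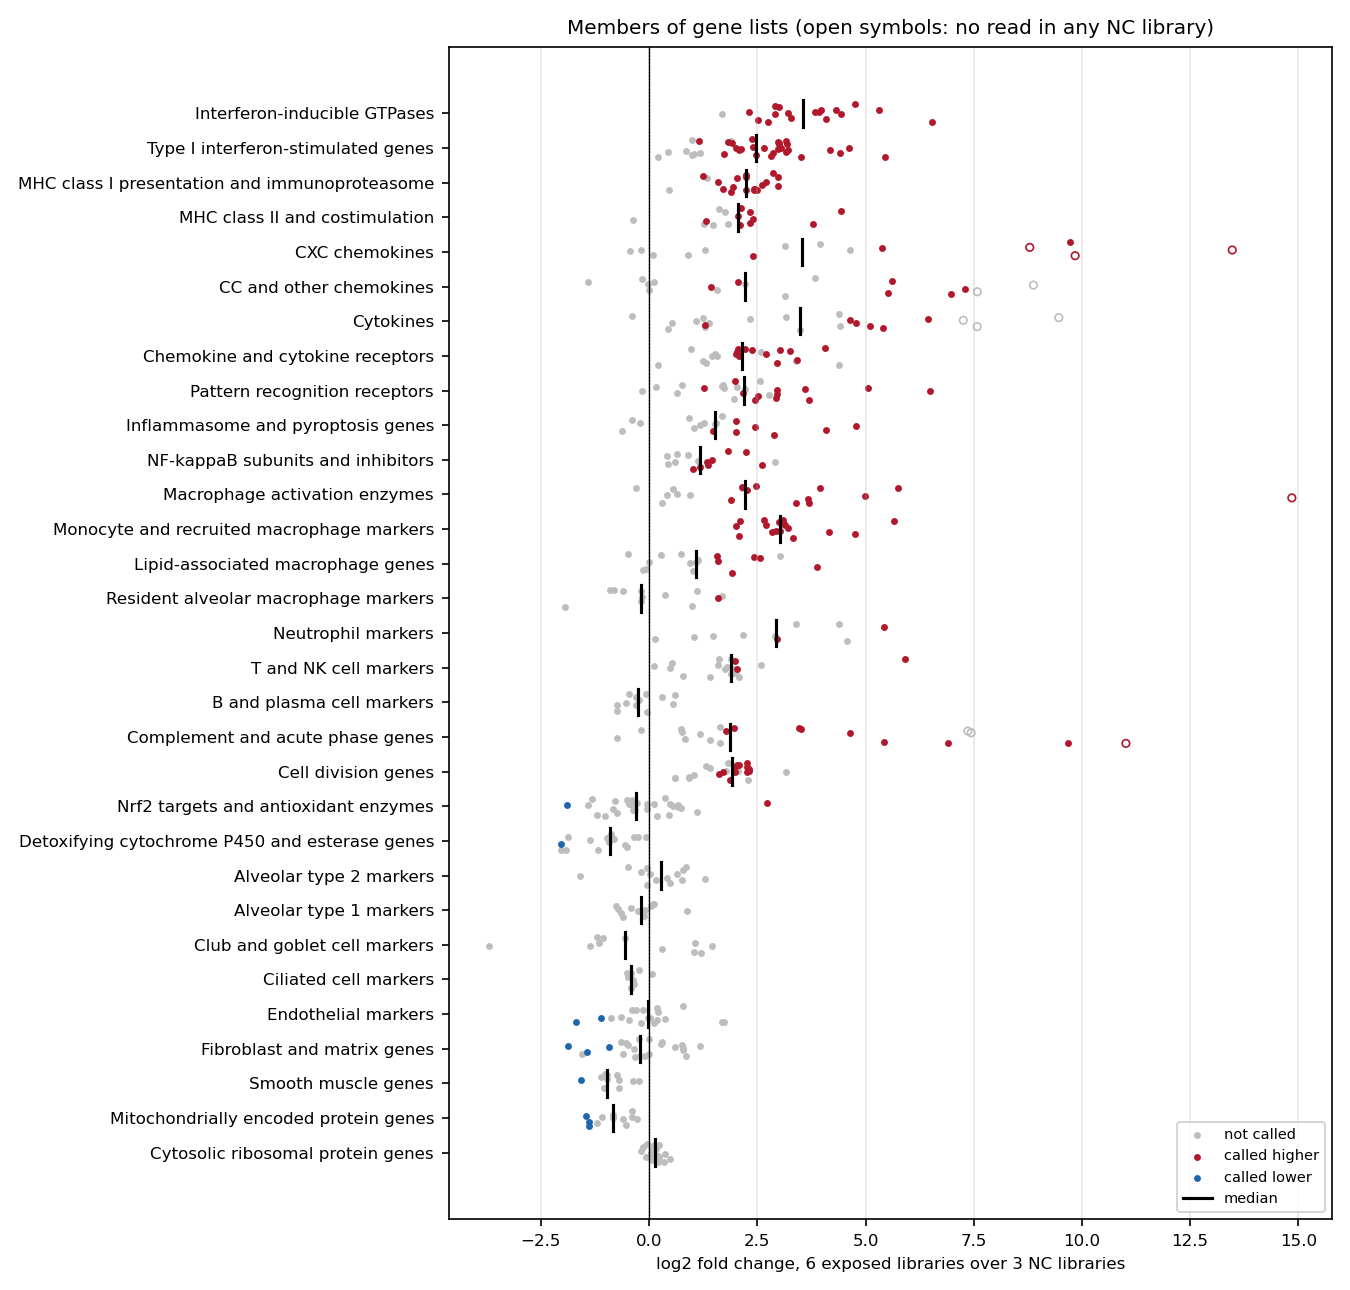
Log2 fold change of the exposed over the NC libraries (x axis) for each tested member of 31 gene lists (y axis), with red points called higher, blue called lower, grey not called, open symbols without a read in NC and a black bar at each median. Medians of the interferon, antigen presentation and recruited macrophage lists lie to the right of 0. Those of the alveolar epithelial, endothelial and ribosomal lists lie between -0.18 and 0.28. The club and goblet list and the ciliated list have medians of -0.56 and -0.42.

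Secreted ligands of inflammation rose in part. Of 14 CXC chemokines 6, of 17 tested CC and other chemokines 6, and of 21 tested cytokines 6 were called higher and none lower. The medians were 3.54, 2.21 and 3.49, and the median of the cytokines was 3.09 with the 3 members lacking NC reads set to their lower bounds. Il1b, the pyrogenic cytokine released through inflammasomes, stood at 11.1, 31.3 and 198 CPM in the exposed libraries, against 1.01, 2.94 and 2.22 CPM in NC (log2 fold change 4.78, standard error 1.12, adjusted p = 0.0359). Tnf, the main early cytokine of LPS-stimulated macrophages, stood at 2.86, 9.27 and 49.9 CPM, against 0, 0 and 0.608 CPM in NC (log2 fold change 6.44, standard error 1.40, adjusted p = 0.0267). Both lay above NC in all 6 exposed libraries, and EA-BN-H replicate 2 stood far above the other 5. The 17 NC reads of Tnf were all in NC replicate 3, and its log2 fold change ran from 5.58 to 11.96 with a library left out. Il1b and Tnf were each called in 4 of the 9 fits. Il1rn, the decoy ligand of the interleukin-1 receptor, rose too (log2 fold change 5.40, standard error 1.08, adjusted p = 0.0203).

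Ccl2, the monocyte chemoattractant, stood at 0.975, 4.09 and 15.1 CPM in the exposed libraries, against 0, 0 and 0.143 CPM in NC. With 4 NC reads, its ratio was 145 (95% counting interval 56.6 to 532). Ccl3 and Ccl4, chemokines that macrophages secrete, had 5 and 11 NC reads, all in NC replicate 1. The ratio was 162 (95% counting interval 69.5 to 499.8) for Ccl3 and 42.6 (95% counting interval 23.8 to 85.3) for Ccl4. Smaller rises were called for Ccl6, a myeloid chemokine (log2 fold change 1.42), Cxcl16, a membrane-bound chemokine and scavenger receptor (log2 fold change 2.40), and Tnfsf13b, the B cell survival factor BAFF (log2 fold change 1.30), the last of them in 2 of the 9 fits. Il6 stood at 0.283, 1.43 and 4.17 CPM in the exposed libraries, against 0.197, 0 and 0 CPM in NC, and was not called (adjusted p = 0.0938).

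Of 22 chemokine and cytokine receptors 12 were called higher, with a median of 2.14. Cx3cr1, the fractalkine receptor of monocytes, had a log2 fold change of 2.06, Csf2rb, the shared chain of the GM-CSF receptor, of 3.26, and Il10ra, a chain of the interleukin-10 receptor, of 2.20. The cytokines had 1 call without COPD replicate 1 or 3. With NC replicate 1, 2 or 3 left out, there were 4, 0 and 3 CXC chemokines, 2, 0 and 2 CC chemokines, 2, 0 and 0 cytokines and 3, 1 and 4 receptors. The receptors numbered 7 without COPD replicate 3.

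Some sensors of microbes and danger rose, as did some of their signalling parts. Of 24 tested pattern recognition receptors 12 were called higher (median 2.19), of 17 inflammasome and pyroptosis genes 7 (median 1.53), and of 15 NF-kappaB subunits and inhibitors 8 (median 1.17). Nod2, a sensor of bacterial muramyl dipeptide, stood at 8.24, 14.8 and 32.9 CPM in the exposed libraries, against 0.987, 1.33 and 4.22 CPM in NC (log2 fold change 2.94, standard error 0.58, adjusted p = 0.0195). Msr1, a scavenger receptor, Clec7a, the beta-glucan receptor dectin-1, and Cgas, the sensor of cytosolic DNA, had log2 fold changes of 3.70, 2.95 and 1.98. The signalling adaptor Myd88, used by most Toll-like receptors, rose by less (log2 fold change 1.27, adjusted p = 0.0359) and was called in 4 of the 9 fits.

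Nlrp3, the sensor of the best-known inflammasome, stood at 11.3, 19.9 and 62.9 CPM in the exposed libraries, against 0.922, 5.79 and 3.68 CPM in NC (log2 fold change 2.89, standard error 0.70, adjusted p = 0.0387). The lowest exposed library lay above the highest NC library, and the call held in 4 of the 9 fits with a library left out. Mefv, the pyrin sensor, Naip2 and Nlrc4, which together sense the rod protein of bacterial secretion systems, and Nlrp1b, an activity sensor for microbial proteases, had log2 fold changes of 4.08, 2.43, 2.01 and 2.0. Casp1, the protease that inflammasomes activate, stood at 3.0, 9.29 and 17.8 CPM, against 3.73, 2.64 and 3.58 CPM in NC, with overlapping groups (adjusted p = 0.122). Btk, a kinase (log2 fold change 1.42, adjusted p = 0.121), and Txnip, a thioredoxin-binding protein (log2 fold change -0.20, adjusted p = 0.615), were not called.

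Among NF-kappaB genes the calls named here were of inhibitors, of a kinase and of the noncanonical arm. Tnfaip3, the deubiquitinase A20, stood at 26.7, 55.4 and 130.3 CPM in the exposed libraries, against 9.57, 9.13 and 12.5 CPM in NC (log2 fold change 2.60, standard error 0.47, adjusted p = 0.0140). Nfkbie, an inhibitor of NF-kappaB, Ikbke, a kinase that also acts on interferon regulatory factors, and Relb, a subunit of the noncanonical pathway, had log2 fold changes of 2.24, 1.83 and 1.33. Without NC replicate 1, 2 or 3 there were 0, 0 and 2 pattern receptors, 1, 0 and 1 inflammasome genes and 2, 0 and 2 NF-kappaB genes called. Without COPD replicate 1 these counts were 6, 3 and 5, and without COPD replicate 3 they were 6, 3 and 4.

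Effector enzymes and markers of macrophages followed. Of 18 macrophage activation enzymes 11 were called higher, with a median of 2.21. Besides Acod1, these included Nos2, the inducible nitric oxide synthase, at 19.0, 50.3 and 198 CPM in the exposed libraries, against 2.74, 1.12 and 2.65 CPM in NC (log2 fold change 4.99, standard error 0.93, adjusted p = 0.0156). Cybb, the catalytic subunit of the phagocyte NADPH oxidase, stood at 44.6, 130.4 and 267 CPM, against 9.46, 12.8 and 12.1 CPM in NC (log2 fold change 3.67, standard error 0.64, adjusted p = 0.0130). Ch25h, which makes 25-hydroxycholesterol, had a log2 fold change of 3.94. EA-BN-H replicate 2 was highest for all 3, and none overlapped NC.

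All 17 monocyte and recruited macrophage markers were called higher, with a median of 3.03, and their summed level was 477 to 1929 CPM in the exposed libraries and 127 to 203 CPM in NC. C1qb, a chain of the complement component C1q made by tissue macrophages, stood at 39.4, 74.0 and 106 CPM in the exposed libraries, against 5.31, 9.86 and 9.55 CPM in NC (log2 fold change 3.12, standard error 0.39, adjusted p = 0.00900). C1qa and C1qc, the other chains, moved with it (log2 fold change 2.93 and 3.14), and Adgre1, the F4/80 antigen, had a log2 fold change of 3.08. As tissue macrophages make C1q, its chains do not by themselves mark recruited cells. In bulk lung RNA more cells of a type and more RNA per cell cannot be told apart.

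Of 17 lipid-associated macrophage genes 6 were called higher, with a median of 1.08. Gpnmb, a glycoprotein of foamy macrophages, stood at 10.4, 32.9 and 54.0 CPM in the exposed libraries, against 2.0, 2.30 and 2.43 CPM in NC (log2 fold change 3.87, standard error 0.46, adjusted p = 0.00900). Fabp5, a fatty acid-binding protein, Itgax, the integrin CD11c, and Lgals3, galectin-3, had log2 fold changes of 2.57, 1.92 and 1.56, and Lgals3 was called in 3 of the 9 fits. COPD replicate 3 was highest and EA-BN-H replicate 3 lowest for Gpnmb, and the groups were wide apart.

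Markers of resident alveolar macrophages gave 1 call in edgeR. An unadjusted p under 0.05 was met by 6 of 12, against 19.3% of all genes, and DESeq2 called 2 higher. The edgeR call was Atp6v0d2, a subunit of the vacuolar proton pump that the lipid-associated list also holds (log2 fold change 1.58, adjusted p = 0.0451). Log2 fold changes ran from -1.94 to 1.69, with a median of -0.18. The summed level of the list, 83.5 to 200.4 CPM in the exposed libraries, overlapped that of 79.4 to 115 CPM in NC. Marco, a scavenger receptor, stood at 1.96, 4.89 and 6.68 CPM in the exposed libraries, against 0.812, 1.52 and 1.86 CPM in NC (adjusted p = 0.0947). Chil3, a chitinase-like protein, and Fabp4, a fatty acid-binding protein, had log2 fold changes of 0.99 and -1.94 and overlapped between the groups. The difference between the resident and the recruited list was not tested.

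Leaving out NC replicate 1, 2 or 3 gave 9, 5 and 7 recruited markers, 1, 2 and 1 activation enzymes and 2, 2 and 3 lipid-associated genes called. Without COPD replicate 1 or 3 the lipid-associated genes numbered 3. Atp6v0d2 remained called in 2 of the 9 fits, and Acod1, Gpnmb and the 3 C1q chains in all 9.

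Markers of other leukocytes followed. Of 16 neutrophil markers, 10 passed the count filter and 2 were called in edgeR. The 10 had a median log2 fold change of 2.93 and all were positive, 7 had an unadjusted p under 0.05 and DESeq2 called 6, and Ly6g, Camp, Ngp, Elane, Mpo and Stfa2l1 were too low to test. Lcn2, lipocalin-2, which neutrophils and inflamed epithelium both make, stood at 100.2, 241 and 823 CPM in the exposed libraries, against 9.44, 9.49 and 4.65 CPM in NC (log2 fold change 5.43, standard error 0.88, adjusted p = 0.0116). Csf3r, the G-CSF receptor, stood at 18.3, 49.6 and 141 CPM, against 1.84, 11.1 and 10.4 CPM in NC (log2 fold change 2.95, standard error 0.72, adjusted p = 0.0415). Il1r2, a decoy receptor, and Mmp8, the neutrophil collagenase, had adjusted p values of 0.0772 and 0.134, with EA-BN-H replicate 2 far above the other exposed libraries. The summed level of the list was 209 to 1211 CPM in the exposed libraries and 33.2 to 136 CPM in NC.

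All 19 T and NK cell markers were positive (median 1.89), 11 had an unadjusted p under 0.05 and DESeq2 called 8. EdgeR called 3 of them. These were Lck, the kinase of the T cell receptor (log2 fold change 1.98), Nkg7, a granule protein of cytotoxic cells (log2 fold change 2.03), and Ctla4, an inhibitory receptor of T cells, which had 3 NC reads and a ratio of 63.7 (95% counting interval 21.8 to 309). Of 12 dendritic cell markers, with a median of 0.25, edgeR called 2. These were Fscn1, an actin-bundling protein of mature cells (log2 fold change 1.39), and Irf8, a transcription factor of that lineage (log2 fold change 1.44). An unadjusted p under 0.05 was met by 6 of the 12, and DESeq2 called 3 higher. None of 12 B and plasma cell markers was called in edgeR, with a median of -0.26, 0 at an unadjusted p under 0.05 and 0 called in DESeq2. With NC replicate 1, 2 or 3 left out, the neutrophil calls were 2, 0 and 0, the T and NK calls 1, 1 and 2, and the dendritic calls 0 each. Without COPD replicate 1 or 3 the neutrophil and the dendritic calls were 1 each, and without COPD replicate 2 the neutrophil calls were 1. Csf3r and Nkg7 were called in 3 of the 9 fits each and Irf8 in 4.

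Soluble effectors rose in part. Of 20 complement and acute phase genes 9 were called higher (median 1.87). Cfb, factor B of the alternative complement pathway, stood at 161, 374 and 759 CPM in the exposed libraries, against 26.6, 13.7 and 9.98 CPM in NC (log2 fold change 4.63, standard error 0.71, adjusted p = 0.0109). The receptors C3ar1 and C5ar1, which bind the complement fragments C3a and C5a, had log2 fold changes of 3.46 and 3.51. Of 10 tested genes of the type 2 response 2 were called, both of them secreted proteins of epithelium and macrophages. Retnla, resistin-like alpha, stood at 164, 453 and 875 CPM, against 51.1, 25.8 and 30.7 CPM in NC (log2 fold change 3.75, standard error 0.55, adjusted p = 0.00934), and Chil1, a chitinase-like protein, had a log2 fold change of 2.47. Il4, Il5 and Il13 were too low to test.

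Matrix-degrading enzymes and their inhibitors gave 4 calls in 18 tested genes. Ctss, the elastin-degrading cathepsin S of macrophages, stood at 93.6, 274 and 465 CPM in the exposed libraries, against 12.6, 23.7 and 22.1 CPM in NC (log2 fold change 3.85, standard error 0.60, adjusted p = 0.0109). Slpi, an inhibitor of neutrophil elastase, rose with it (log2 fold change 4.68, adjusted p = 0.00926), as did Mmp14, a membrane-bound metalloproteinase (log2 fold change 1.77), and Timp1, an inhibitor of metalloproteinases (log2 fold change 4.91). Without NC replicate 1, 2 or 3 there were 5, 1 and 5 complement and acute phase genes, 2, 2 and 3 genes of this list and 2, 0 and 1 type 2 genes called, and without COPD replicate 1 or 3 this list had 2. Without EA-BN-H replicate 3 it had 7. Ctss and Slpi were called in all 9 fits, and Mmp14 and Timp1 in 4 each.

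Genes of cell division rose in part. Of 24, 12 were called higher with a median of 1.93, and all 24 had a positive fold change. Top2a, the topoisomerase of replicating cells, stood at 24.0, 44.6 and 68.7 CPM in the exposed libraries, against 10.4, 7.98 and 9.12 CPM in NC (log2 fold change 2.30, standard error 0.37, adjusted p = 0.0113). Ccna2, cyclin A, stood at 5.83, 8.82 and 14.7 CPM, against 2.22, 2.0 and 1.86 CPM in NC (log2 fold change 2.25, standard error 0.33, adjusted p = 0.00934). COPD replicate 1 was highest for Top2a and EA-BN-H replicate 2 for Ccna2, and all exposed libraries exceeded NC. Cenpe, a kinetochore motor, and Bub1b, a spindle checkpoint kinase, had log2 fold changes of 2.07 and 1.99. Leaving out NC replicate 1, 2 or 3 gave 10, 3 and 5 calls.

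Of 24 apoptosis and cell death genes 4 were called higher and the median was 0.70. Bax, a pore-forming protein of the mitochondrial death pathway, stood at 15.7, 19.4 and 25.5 CPM in the exposed libraries, against 9.90, 11.1 and 10.4 CPM in NC (log2 fold change 0.93, standard error 0.19, adjusted p = 0.0212). Bcl2a1d, a survival gene of leukocytes with near-identical copies, had a log2 fold change of 3.24. Bcl2, the opponent of Bax (log2 fold change -0.09, adjusted p = 0.849), was not called. Without each of NC replicates 1, 2 and 3 a single gene of the list was called, without COPD replicate 3 there were 2, and Bax remained in 5 of the 9 fits.

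The called falls had a smaller median size than the called rises. Pon1 (chr6:5168090-5193987), a lipoprotein-bound esterase, stood at 15.7, 24.0 and 45.9 CPM in the exposed libraries, against 156, 98.8 and 81.0 CPM in NC (log2 fold change -2.03, standard error 0.31, adjusted p = 0.0101). Krt23, an epithelial keratin, stood at 1.76, 3.47 and 5.05 CPM, against 14.0, 13.6 and 12.3 CPM in NC (log2 fold change -1.90, standard error 0.30, adjusted p = 0.0113). Even the highest exposed library was well under the lowest NC library for both, and both were called in all 9 fits with a library left out.

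Ogn, a small proteoglycan of the matrix, stood at 18.3, 31.4 and 54.8 CPM in the exposed libraries, against 159.7, 82.7 and 119.8 CPM in NC (log2 fold change -1.87, standard error 0.32, adjusted p = 0.0129). Lrat, which esterifies and stores retinol, stood at 3.99, 7.39 and 12.4 CPM, against 27.6, 21.0 and 34.9 CPM in NC (log2 fold change -1.83, standard error 0.31, adjusted p = 0.0123). Esm1, a proteoglycan of activated endothelium, stood at 1.73, 2.76 and 3.51 CPM, against 6.78, 10.8 and 9.41 CPM in NC (log2 fold change -1.69, standard error 0.26, adjusted p = 0.0109). None of these 3 genes overlapped between the groups.

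Rptn, an epidermal matrix protein, Gria1, a glutamate receptor subunit, Tnr, a matrix glycoprotein, Chrm2, the muscarinic receptor M2, Klhl13, an adaptor of a ubiquitin ligase, and Ctnna3, an alpha catenin, fell as well, with log2 fold changes of -2.25, -1.90, -1.85, -1.81, -1.67 and -1.61. With the 5 genes above and Nqo1, described with the redox genes, they were the 12 largest falls among called genes that had a name, did not overlap between the groups and averaged at least 50 counts per library. Of these, Rptn remained called in 8, Gria1, Chrm2 and Klhl13 in 5, Ctnna3 in 3 and Tnr in 2 of the 9 fits. Sdc2, syndecan-2, chosen after its values were seen for the smallest p among the falls, stood at 15.7, 18.2 and 21.1 CPM in the exposed libraries, against 37.1, 40.2 and 34.6 CPM in NC (log2 fold change -1.05, standard error 0.15, adjusted p = 0.00900).

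Redox and detoxifying genes gave 1 or 2 calls per list in edgeR. Of 28 tested Nrf2 targets and antioxidant enzymes 12 had an unadjusted p under 0.05, against 19.3% of all genes, and the median was -0.30. DESeq2 called 3 higher and 6 lower. EdgeR called 1 higher and 1 lower, where it called 4.8% of all genes. The lower gene was Nqo1, a quinone reductase, at 1.31, 2.52 and 5.24 CPM in the exposed libraries, against 15.2, 11.5 and 6.08 CPM in NC (log2 fold change -1.89, standard error 0.44, adjusted p = 0.0343). The higher gene was Slc7a11, the cystine transporter (log2 fold change 2.71, adjusted p = 0.0407), which stood highest in EA-BN-H replicate 2. Nfe2l2, which encodes Nrf2 (log2 fold change 0.10, adjusted p = 0.855), Hmox1, heme oxygenase-1 (log2 fold change 0.66, adjusted p = 0.387), and Cat, catalase (log2 fold change -1.03, adjusted p = 0.0587), were not called. Cat was below NC in all 6 exposed libraries without passing the adjusted p.

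Of 17 cytochrome P450 and esterase genes of detoxification all had a negative fold change, with a median of -0.91. An unadjusted p under 0.05 was met by 13, DESeq2 called 7 lower, and edgeR called 1, Pon1. Cyp4b1, a P450 of lung, had a log2 difference of -0.91 (adjusted p = 0.0740), Aldh1a1, a retinal dehydrogenase, -1.18 (adjusted p = 0.0759), and Ces1f, a carboxylesterase, -1.88 (adjusted p = 0.0871). Of 7 tested targets of the aryl hydrocarbon receptor, which binds compounds of smoke, edgeR called Nqo1 lower and none higher. DESeq2 called 3 lower and 1 higher, and 5 had an unadjusted p under 0.05. Cyp1a1, the classical target of the receptor, stood at 0, 0.345 and 2.21 CPM in the exposed libraries, against 0.658, 7.0 and 6.47 CPM in NC (adjusted p = 0.198), and Ahr itself had a log2 difference of -0.46 (adjusted p = 0.0786). Aldh3a1, an aldehyde dehydrogenase, had a log2 difference of -1.40 (adjusted p = 0.105). NC replicate 1 was the highest NC library for Cyp4b1, Aldh1a1, Aldh3a1, Ces1f and Cat. Aldh3a1 stood at 9.31, 21.9 and 32.0 CPM in the exposed libraries, against 103, 34.4 and 23.7 CPM in NC, and it and Cyp4b1 overlapped between the groups. That library also held the highest airway marker levels of NC, with median log2 ratios to the NC mean of 1.26 for the club and goblet list and 0.66 for the ciliated list, and their part in these values was not tested. Nqo1 remained called in 3 of the 9 fits, Slc7a11 in 4 and Pon1 in all 9, and no gene of the Nrf2 list was called without NC replicate 1, 2 or 3 or without COPD replicate 3.

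Markers of lung structure gave no call in epithelium, and 1 to 3 calls per list, all lower, in endothelium, matrix and smooth muscle. Over all genes 0.839% were called lower. None of 14 alveolar type 2, 12 alveolar type 1, 11 club and goblet, and 10 ciliated cell markers was called in edgeR, with medians of 0.28, -0.18, -0.56 and -0.42. At an unadjusted p under 0.05 there were 3, 2, 4 and 0, and DESeq2 called 3, 1, 2 and 0. Sftpc, surfactant protein C, stood at 234, 702 and 1226 CPM in the exposed libraries, against 296, 974 and 879 CPM in NC (log2 fold change -0.05, adjusted p = 0.975). Sftpb and Sftpd, surfactant proteins B and D, had log2 fold changes of -0.48 and 0.77. Ager, the receptor RAGE of type 1 cells, stood at 175, 369 and 493 CPM, against 100.3, 549.6 and 391 CPM in NC (log2 fold change 0.05, adjusted p = 0.975). Cldn18, an alveolar tight junction protein, had a log2 fold change of 0.10. For Sftpc and Ager the lowest NC library was NC replicate 1, far under the other NC libraries.

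Scgb1a1, the secretoglobin of club cells, stood at 2561, 5216 and 7215 CPM in the exposed libraries, against 18332, 10059 and 7385 CPM in NC (adjusted p = 0.122), and Cyp2f2, a P450 of club cells, at 569.6, 1293 and 2095 CPM, against 5387, 3166 and 2044 CPM (adjusted p = 0.0921). NC replicate 1 was the highest library for both. Lyz2, a lysozyme of type 2 cells and macrophages alike, had a log2 difference of 1.30 (adjusted p = 0.136), and S100g, a calcium-binding protein, had a log2 difference of -1.60 (adjusted p = 0.0807).

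Of 19 endothelial markers Esm1 and Ednrb, the endothelin receptor B (log2 fold change -1.11, adjusted p = 0.0225), were called lower, and Icam1, an adhesion molecule for leukocytes, was above NC in all 6 exposed libraries without a call (log2 fold change 1.67, adjusted p = 0.0737). Of 23 fibroblast and matrix genes 3 were called lower: Ogn, Efemp1, a matrix protein of elastic fibres (log2 fold change -1.43, adjusted p = 0.0100), and Vgll3, a transcription cofactor (log2 fold change -0.92, adjusted p = 0.0431). Col1a1, collagen I, stood at 816, 1143 and 1548 CPM in the exposed libraries, against 329, 662 and 568 CPM in NC, and missed the threshold (adjusted p = 0.0518).

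Smooth muscle genes had the lowest median of these lists, -0.98, and all 12 were negative. An unadjusted p under 0.05 was met by 9 of the 12, against 19.3% of all genes, and DESeq2 called 6. The single call in edgeR was for Gucy1a2, part of the guanylate cyclase that binds nitric oxide, at 6.11, 9.51 and 13.0 CPM in the exposed libraries, against 21.8, 31.8 and 32.6 CPM in NC (log2 fold change -1.57, standard error 0.23, adjusted p = 0.00934). Myh11, smooth muscle myosin, had a log2 difference of -1.11 (adjusted p = 0.0517) and Tagln, an actin-binding protein of the same cells, -1.04 (adjusted p = 0.0820). The summed level of the list was 398 to 715 CPM in the exposed libraries and 894 to 1373 CPM in NC. Cardiac and skeletal muscle markers, a tissue that can be cut with the lung, had a median log2 fold change of -1.19 over 12 genes, none of them called in edgeR (6 at an unadjusted p under 0.05 and 2 called in DESeq2), and summed levels of 73.6 to 277 CPM in the exposed libraries and 190 to 504 CPM in NC. Their part in the smooth muscle values was not tested. Without NC replicate 2 no endothelial gene was called, and without NC replicate 1 or 3 or COPD replicate 3 there was 1, and Gucy1a2, Efemp1 and Ogn were called in all 9 fits, Esm1 in 8, Ednrb in 5 and Vgll3 in 1.

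Of the genes encoded in mitochondrial DNA, some fell. Of 13 protein genes 3 were called lower and all 13 were negative, with a median of -0.84, while 24 nuclear subunits of the respiratory chain had none called in edgeR or DESeq2, 0 at an unadjusted p under 0.05 and a median of 0.0. ND5, a subunit of complex I, stood at 111, 201 and 362 CPM in the exposed libraries, against 721, 559.8 and 452 CPM in NC (log2 fold change -1.46, standard error 0.30, adjusted p = 0.0229). ND2 and ND4, subunits of the same complex, had log2 fold changes of -1.39 and -1.39. The values of ND1, ND3 and ND6 on the same scale were -0.84, -0.29 and -0.83 with overlapping groups, and ND3 stood at 0.51 without NC replicate 1. CYTB of complex III had a log2 difference of -1.09 (adjusted p = 0.0857). EA-BN-H replicate 3 was the highest exposed library and NC replicate 1 the highest NC library for ND1, ND2, ND3, ND4, ND5 and ND6. Without EA-BN-H replicate 3, 7 of the 13 genes were called. None was called without NC replicate 1, 2 or 3 or without COPD replicate 1 or 3, and 1 was called without COPD replicate 2 or EA-BN-H replicate 1, and 2 without EA-BN-H replicate 2. The share of mitochondrial mRNA was 0.942 to 1.98% in the exposed libraries and 1.53 to 4.0% in NC (exact permutation test, 2-sided p = 0.143). ND5 and ND6 overlap on opposite strands, and the strand setting of the counting was not given, so that their reads may be shared. Fos, an immediate early transcription factor, also fell, at 17.8, 24.1 and 46.0 CPM, against 131, 60.4 and 58.6 CPM in NC (log2 fold change -1.52, standard error 0.36, adjusted p = 0.0365), and remained called in 2 of the 9 fits. Fosb, its relative, was not called (log2 fold change -1.11, adjusted p = 0.0927). Among 17 genes of the immediate early and heat shock responses Fos was the only call, and edgeR called none of 24 cytosolic ribosomal protein genes (1 at an unadjusted p under 0.05, 0 in DESeq2), 6 erythroid markers (0 and 0), 3 adipose markers (1 and 0), 3 mesothelial markers (1 and 1) and 8 small non-coding RNAs (0 and 0). The study named ND1 to ND6 and genes such as Gbp5 from its lung RNA-seq, so that these are not independent evidence. Others, such as Nqo1 and Nlrp3, it measured as protein in lung. Of the 27 genes that the study names in lung, 9 were called higher and 4 lower. Without NC replicate 1, 2 or 3 there were 2, 1 and 3 higher and 0 lower. Without COPD replicate 1 or 3 there were 5 and 4 higher and 1 and 0 lower, and the lower genes numbered 2, 1, 2 and 6 without COPD replicate 2 or EA-BN-H replicate 1, 2 or 3.

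The 6 exposed libraries varied among themselves. Over the 741 higher genes the median log2 ratio to the NC mean, on CPM + 0.5, was 1.31, 2.47 and 1.21 in EA-BN-H replicates 1, 2 and 3 and 2.11, 1.53 and 2.15 in COPD replicates 1, 2 and 3. NC replicates 1, 2 and 3 stood at -0.20, 0.06 and 0.09. EA-BN-H replicate 2 was the highest exposed library for 541 of the 741 genes, and EA-BN-H replicates 3 and 1 and COPD replicate 2 were the lowest for 365, 206 and 127. The nuclear protein-coding counts were 8301248, 12245874 and 12675653 in EA-BN-H replicates 3 and 1 and COPD replicate 2, and 16954770 to 17295294 in EA-BN-H replicate 2 and COPD replicates 1 and 3. The part of this depth in the levels was not tested.

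EA-BN-H replicate 2 also stood highest in many of the gene lists that rose. The median of the interferon-inducible GTPases was 1.75, 4.30 and 2.84 in EA-BN-H replicates 1, 2 and 3, and 3.35, 2.41 and 3.45 in COPD replicates 1, 2 and 3. Cytokines were at 0.62, 2.88 and 0.51 in EA-BN-H and at 1.41, 1.31 and 1.46 in COPD. The smooth muscle list was lowest in EA-BN-H replicate 2 (-1.47) and COPD replicate 2 (-1.26).

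**Figure D5:**
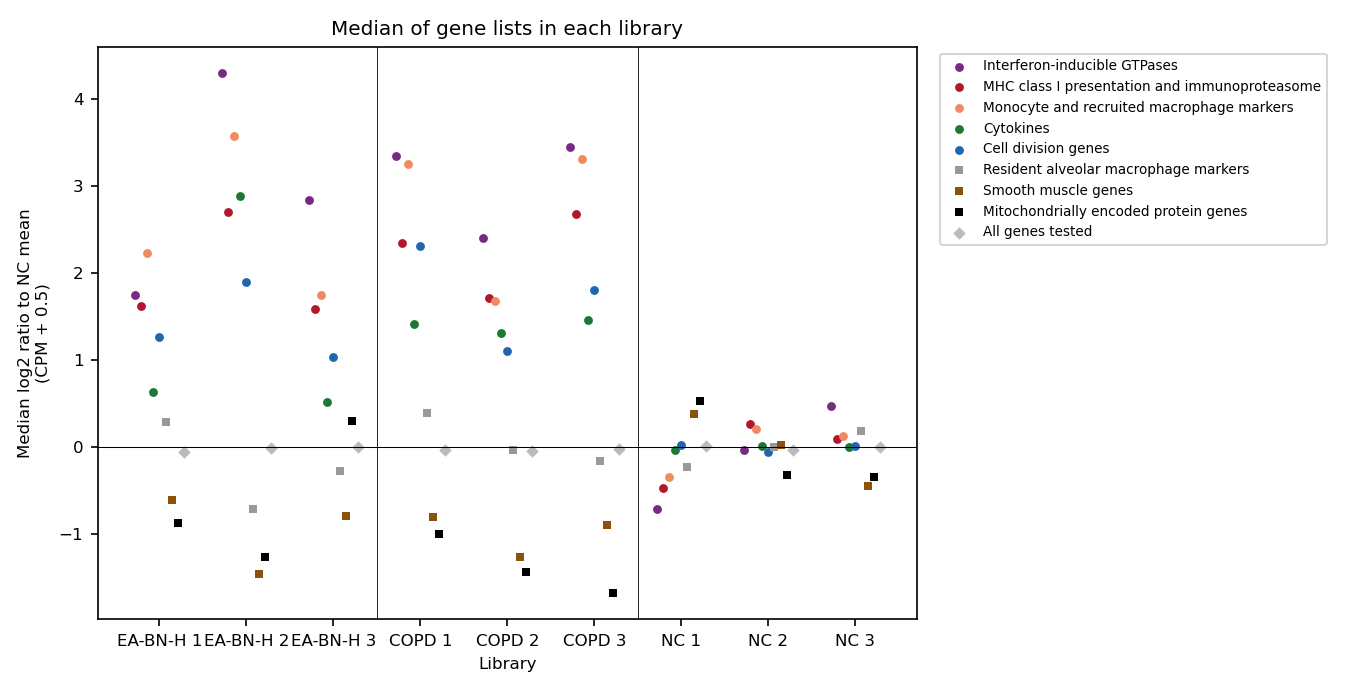
Median over each gene list of the log2 ratio of a library to the NC mean on CPM + 0.5 (y axis) in the 3 EA-BN-H, 3 COPD and 3 NC libraries (x axis), with circles for lists that were higher, squares for lists that were lower or level, and diamonds for all genes tested. The GTPases reach 4.30 in EA-BN-H replicate 2 and 1.75 in EA-BN-H replicate 1, and all genes stay near 0 in every library.

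Within the exposed group, EA-BN-H and COPD were compared in a fit with 3 groups. EdgeR called 0 genes between EA-BN-H and COPD at an adjusted p under 0.05, and 296 (1.58%) had an unadjusted p under 0.05. Of the 741 higher genes 3 and of the 157 lower genes 6 had an unadjusted p under 0.05 between them, and 0 passed the adjusted p. The 741 and 157 genes were called with EA-BN-H and COPD as 1 group, which disfavours genes that differ between them. Their counts here, and their medians below, are thus partly set by that choice. None of this shows that the exposed lungs with and without EA-BN were alike. In the same fit, EA-BN-H had 194 genes higher (1.04%) and 17 lower (0.0908%) than NC, and COPD had 287 higher (1.53%) and 12 lower (0.0641%). Both of these comparisons and the pooled one share the 3 NC libraries. The median log2 fold change of the 741 genes against NC was 2.04 in EA-BN-H and 2.22 in COPD, and that of the 157 lower genes was -0.97 and -0.98. Fitted with NC alone, the 3 COPD libraries gave 643 higher and 81 lower genes, and the 3 EA-BN-H libraries gave 0 with a smallest adjusted p of 0.0989 and 2167 genes at an unadjusted p under 0.05. Gm29695, an unnamed gene model with the smallest p of all genes and chosen after its values were seen, stood at 5.67, 7.34 and 8.87 CPM in the exposed libraries, against 0.527, 0.576 and 0.715 CPM in NC (log2 fold change 3.59, standard error 0.28, adjusted p = 0.000962).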

How the data were processed

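Lung RNA of 9 mouse libraries (3 EA-BN-H, 3 COPD and 3 NC) was sequenced in reads of 101 bp. Per the submitters' processing notes, reads were trimmed with Trimmomatic 0.38, aligned to mm10 with HISAT2 2.1.0 and assembled with StringTie 2.1.3b. The notes also name DESeq2, and the study's methods name HTSeq for counting. The labels name a stranded total RNA kit, and the strand setting of the counting was not given in the sources used here. The authors deposited 1 table of 129299 RefSeq transcripts with estimated counts (whole numbers, not normalised), FPKM and TPM values for each library. The deposited FPKM values were not used. The deposited TPM values served only in an alternative test. Columns and samples were matched by name.
Estimated counts were summed by gene ID to 45777 genes. After the count filter of edgeR (filterByExpr, minimum count 10, minimum total 15), 18716 genes were tested with TMM scaling and the robust quasi-likelihood test of edgeR 4.0.16 (R 4.3.3), 6 exposed against 3 NC libraries, with Benjamini-Hochberg adjustment over all genes and a threshold of 0.05. CPM values were scaled by TMM and were compared between libraries, not between genes. A fold against libraries at 0 used a floor of 3 counts per library, and ratios with few NC reads carry exact Poisson-based 95% intervals, which cover counting error only. A fit with 3 groups gave EA-BN-H against COPD. Library measures were compared by exact permutation over the 84 assignments. Limma 3.58.1, DESeq2 1.42.0 and the other settings tried are given in the closing section, and the edgeR test was tested on simulated data. With 100 changed genes of each size, it called 12% at an absolute log2 change of 1 and 71% at 2. A gene that was not called may therefore still have changed. Python 3.11.15 with scipy 1.17.1 was used for the descriptions.
Named genes were the 12 largest rises and 12 largest falls among called genes without overlap. These had a mean of at least 50 counts and a gene symbol. Up to 4 members of each of 44 lists by p were also named, as were the genes the study names in lung. The study's choice of some of its genes rested on these libraries. The members and lists were chosen with earlier results of these data known. A few genes of the lists are counted in them but not reported here by name.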

Additional observations from a re-analysis of the deposited data

Results flagged for a closer look

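In 178 sets of 6 exposed values tested for a single library far from the rest by Dixon's criterion, 25 had one. The criterion flags about 1 in 20 for independent, normally distributed values. The values here were mostly unlogged CPM of genes that vary together, many of them chosen on calls in these libraries. The share flagged therefore cannot be set against that rate. EA-BN-H replicate 2 stood far above the other exposed libraries for 20 genes. Among interferon and antigen presentation genes it held 334 CPM of Igtp, 324 CPM of Gbp5, 430.4 CPM of Nlrc5, 281 CPM of Cd274, 137 CPM of Cxcl10 and 18.1 CPM of Trim30c. Among cytokines and their partners it held 198 CPM of Il1b, 49.9 CPM of Tnf, 138 CPM of Il1rn, 27.3 CPM of Ccl3, 13.4 CPM of Ccl4 and 17.9 CPM of Il1r2. It held 198 CPM of Nos2, 62.9 CPM of Nlrp3, 6.63 CPM of Cgas, 15.5 CPM of Gpr84, 25.5 CPM of Orm2, 10.7 CPM of Mmp8, 192 CPM of Timp1 and 76.6 CPM of Slc7a11.
EA-BN-H replicate 3 stood far above the other exposed libraries for 5 values. These were 1150.0 CPM of ND1, 159 CPM of ND2, 417 CPM of ND4, 4.92 CPM of Tnr and a share of 3.87% of counts from mitochondrial ribosomal RNA. This library also had the highest share of 7SL RNA, 63.5%, and the lowest nuclear protein-coding count, and the part of these in the mitochondrial values was not tested.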

How the results depend on the processing

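Among all genes, the counts called higher and lower (741 and 157) were 259 and 123 with library totals alone, 1572 and 540 with DESeq2 (also with shrunken fold changes), 643 and 81 with the COPD libraries only, 0 and 0 with the EA-BN-H libraries only (2167 genes at an unadjusted p under 0.05), 137 and 36 with limma on log2(TPM + 0.1), 9 and 30 with limma on log2(TPM + 1), and 2 and 0 for transcripts in place of genes. With the replicate block they were 489 and 70. Residuals of same-numbered libraries correlated between -0.243 and 0.127. Differently numbered libraries were not set beside them, so that a pairing by number was neither shown nor excluded. At the study's thresholds (1410 and 350) the genes numbered 627 lower with library totals, 902 lower without a filter on low counts, 143 lower with shrunken fold changes, 924 lower with log2(TPM + 0.1), 455 higher and 188 lower with log2(TPM + 1), and 2522 higher for transcripts. With 1 library left out in turn, the calls ranged from 122 to 986 higher and from 9 to 216 lower. With 5 exposed and 2 NC libraries, a setting chosen after seeing the data that left out EA-BN-H replicate 3 and NC replicate 1, 101 genes were called lower. RLE size factors, TMM on nuclear protein-coding genes, a minimum of 10 counts and the average of a 3-group fit left all 4 counts within 1.5 times.
None of the 121 named genes that were called changed sign in the gene-level settings that tested it (a minimum of 10 counts and the EA-BN-H libraries only left some untested, and transcripts were not compared by gene). This was largely set beforehand, as the genes were chosen on calls in the same libraries. Of the 741 higher and 157 lower genes, 722 and 151 did not overlap between the groups. Of the 121 named genes, 64, 34 and 58 were still called without NC replicate 1, 2 and 3, 83 with library totals, 98 with the replicate block and 31 in all 9 fits with a library left out. Of the named genes not called, 6 changed sign. Nfe2l2 had a log2 fold change of -0.021 with library totals, -0.22 on log2(TPM + 0.1) and -0.20 on log2(TPM + 1). Ager had -0.057 with library totals, -0.17 with EA-BN-H only, -0.047 in both TPM settings and -0.23 with 5 and 2 libraries, and ran from -0.39 to 0.55 with a library left out. Cldn18 had -0.29 with EA-BN-H only, -0.21 and -0.19 in the TPM settings and -0.044 with 5 and 2 libraries, and ran from -0.19 to 0.27. Sftpc had 0.32 with COPD only and ran from -0.42 to 0.23. ND3 had 0.20 with EA-BN-H only and 0.10 with 5 and 2 libraries and ran from -0.72 to 0.51, and the highest value of Bcl2 was 0.0044. The causes were not tested.
The number of calls is the least stable quantity here, with 3 NC libraries. NC replicate 1 stood apart from the others in several lung markers. Without NC replicate 1, 2 or 3, edgeR called 276, 122 and 218 genes higher, and the cause was not tested. Low genes with no NC read have only lower bounds. Bulk RNA cannot separate cell number from RNA per cell, and reads of near-identical genes may be split.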

Other observations

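Several gene families outside the lists were looked at after their values were seen, and are given as values with no test. Over all genes tested, 3.96% were called higher and 0.839% lower. Of 63 tested replication-dependent and linker histone genes, which package newly made DNA, 36 were called higher and none lower in the exposed libraries, with a median log2 fold change of 1.96. Their summed level was 352, 646 and 989 CPM (lowest, median and highest exposed library), against 415, 387 and 256 CPM in NC, so that the sums overlap. Histone genes are near-identical to each other, and reads may be split between them. Of 37 Fc gamma, paired immunoglobulin-like and C-type lectin receptors of myeloid cells, 20 were called higher and none lower, with a median of 2.35 and summed levels of 236, 508 and 1167 CPM in the exposed libraries, against 77.1, 135 and 133 CPM in NC. Of 8 Schlafen genes, an interferon-inducible family, 5 were called higher, with a median of 2.76.
Of 20 clock genes, which drive daily rhythms, 3 were called lower and the median was 0.02. The 3 were activators of the loop: Arntl had a log2 fold change of -1.10, Clock of -0.72 and Npas2 of -1.44. The time of day of collection was not given in the sources used here. Arntl was still called in 2, Npas2 in 3 and Clock in 6 of the 9 fits with a library left out.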
